A study of Homo sapiens with 9 samples.

Results

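The sterol regulatory element-binding proteins (SREBPs) and the proteins that hold them back were examined in HCT116 cells, a human colorectal cancer (CRC) line, through 6 genes taken by symbol from the 31558 genes of the count table. They are SREBF1 and SREBF2, which encode the transcription factors SREBP1 and SREBP2, SCAP, which encodes their escort protein, INSIG1 and INSIG2, which encode the retention proteins of the endoplasmic reticulum (ER), and STARD4, which encodes a soluble sterol carrier. Each symbol occurred once in the table, and all 6 genes were counted in every sample. No receptor for low-density lipoprotein is among them, so uptake of that particle was not analysed here. The genes were picked by symbol for their function in sterol sensing, with earlier fold changes from the same 9 samples known. Their values are therefore given as a description, with standard errors and without a p-value.

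RNA was sequenced from 3 groups of 3 biological replicates. All 3 groups were described as transfected, CRLM1-OE with a plasmid for the lncRNA CRLM1 (LINC01767), Anti with a plasmid for its antisense sequence and Ctrl with the empty plasmid. The methods also describe a lentiviral vector for CRLM1 with GFP and puromycin selection. Whether these libraries came from selected cells, the promoter, and whether a line was grown from 1 clone are not given in the sources used here. CRLM1 had between 32751 and 38704 counts in the CRLM1-OE samples, none (0) in Ctrl and between 1540 and 1951 in Anti. The strand of the reads in Anti was not analysed here. Total counts per sample ranged from 33302292 to 44514692. The epithelial genes EPCAM, CDH1, KRT8, KRT18 and KRT19 had at least 3995 counts in every sample and CDX2 at least 456, while the intestinal markers VIL1 and CDX1 had at most 10. Of the markers of other cell types, PTPRC, COL1A2, PECAM1, CDH5 and ALB had at most 6 counts per sample, CD3E was not analysed here, and COL1A1 had 305 to 652. COL1A1, a fibroblast collagen gene, moved with the groups, at 617 to 652 counts in CRLM1-OE, 305 to 419 in Ctrl and 371 to 383 in Anti, while COL1A2, its partner chain, had at most 1. KRT18 was lower in CRLM1-OE, at 424 to 428 FPKM against 777 to 790 in Ctrl and 810 to 839 in Anti. EPCAM was lower too, at 72.7 to 75.3 FPKM against 86.2 to 88.8 in Ctrl and 90.6 to 95.1 in Anti, and KRT8 by a smaller margin. KRT19 in CRLM1-OE (3050 to 3150 FPKM) was below Ctrl (3200 to 3260) but above Anti (2270 to 2350). CDH1 in CRLM1-OE overlapped Ctrl in FPKM. The part of these shifts in the values of the 6 genes was not tested, and in bulk RNA fewer expressing cells and less RNA per cell cannot be told apart.

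In sterol-rich cells, SCAP and the SREBP precursors are held in the ER by the INSIG proteins. When ER sterol falls, SCAP carries the precursor in COPII vesicles to the Golgi, where the site-1 and site-2 proteases (MBTPS1 and MBTPS2) release the part that enters the nucleus and activates transcription. SREBP2 acts mainly on genes of cholesterol synthesis and uptake, and SREBP1 mainly on genes of fatty acid synthesis. INSIG1, STARD4 and SREBF2 are themselves known SREBP targets, so that the messenger RNA of INSIG1 is a common readout of the pathway, whereas INSIG2 is largely independent of it. Intestinal epithelium, from which CRC arises, synthesizes sterols.

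The stretches of DNA ahead of SREBF2, INSIG1 and STARD4 are printed here because these 3 genes were the members at least 2-fold higher in CRLM1-OE than in one of the controls. Each was taken from RefSeq (GRCh38.p14), begins 250 bases before the RefSeq start site, reads 5′ to 3′ along the gene and ends where the gene begins in GENCODE version 44. Capitals mark the letters of 4 motifs, searched on both strands in all 250 bases. The letters TCACNCCAC stand for the sterol response element, the sequence that SREBPs bind. The CCAAT box, known as a site of a cofactor of SREBPs, was searched by those letters. The GC box was searched as GGGCGG, and neighbouring copies can overlap. The E-box, another sequence that SREBPs can bind, was searched as CACGTG.

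SREBF2, chr22:41832855-41833104, plus strand: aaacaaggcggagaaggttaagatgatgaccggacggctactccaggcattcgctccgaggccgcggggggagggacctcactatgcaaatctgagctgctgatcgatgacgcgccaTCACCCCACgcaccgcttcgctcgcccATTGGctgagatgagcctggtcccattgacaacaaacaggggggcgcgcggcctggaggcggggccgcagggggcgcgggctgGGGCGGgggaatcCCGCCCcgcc

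INSIG1, chr7:155297628-155297775, plus strand: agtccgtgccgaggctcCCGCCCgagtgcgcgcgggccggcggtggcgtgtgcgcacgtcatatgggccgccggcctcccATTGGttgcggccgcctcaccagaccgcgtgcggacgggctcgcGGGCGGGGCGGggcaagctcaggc

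STARD4, chr5:111512591-111512785, minus strand: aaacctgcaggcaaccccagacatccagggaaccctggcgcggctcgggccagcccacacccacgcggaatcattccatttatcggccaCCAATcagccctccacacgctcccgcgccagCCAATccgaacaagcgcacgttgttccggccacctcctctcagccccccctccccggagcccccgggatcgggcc

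The sterol response element letters were found in the SREBF2 stretch, as TCACCCCAC at positions -133 to -125 from the start site, with a CCAAT box in reverse orientation at -106 to -102. Over all 27305 promoter windows of this length, 0.875% held the former, and 9021 windows held a CCAAT box. The other 5 genes did not hold TCACNCCAC in these windows. A CCAAT box lay at -170 to -166 in INSIG1, in reverse orientation, and at -161 to -157 and -130 to -126 in STARD4. None was found in the windows of INSIG2, SCAP and SREBF1. GC boxes, present in 42.3% of all promoters, occurred in all 6 genes, and an E-box, present in 6.49%, in INSIG1 and SCAP. The SCAP window, chr3:47475942-47476191, lies inside the gene as given by GENCODE version 44, which begins at 47477126 on the minus strand. The E-box of INSIG1, at -55 to -50, lies past the stretch printed. So do the INSIG1 GC boxes at -93 to -88 and -80 to -75, and the GC box of STARD4 at -52 to -47. These matches are letters in a window and were not measured as binding sites.

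In cells overexpressing CRLM1, the retention gene INSIG1, the sterol carrier gene STARD4 and the factor gene SREBF2 all stood above both controls. SREBF1 stood above both by a smaller margin, 1.45-fold over Ctrl and 1.11-fold over Anti. SCAP and INSIG2 differed little from either control. INSIG1 had the widest gap, 6.14-fold over Ctrl and 13.0-fold over Anti. The 2 controls were not alike: Anti had less INSIG1 and SREBF2 than Ctrl, and more SREBF1. Levels are given in FPKM, that is, fragments adjusted to the exon length of a gene and to the size of the library, and differences as log2 fold changes of counts after scaling of the libraries by the TMM method, with standard errors (SE).

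**Figure D1:**
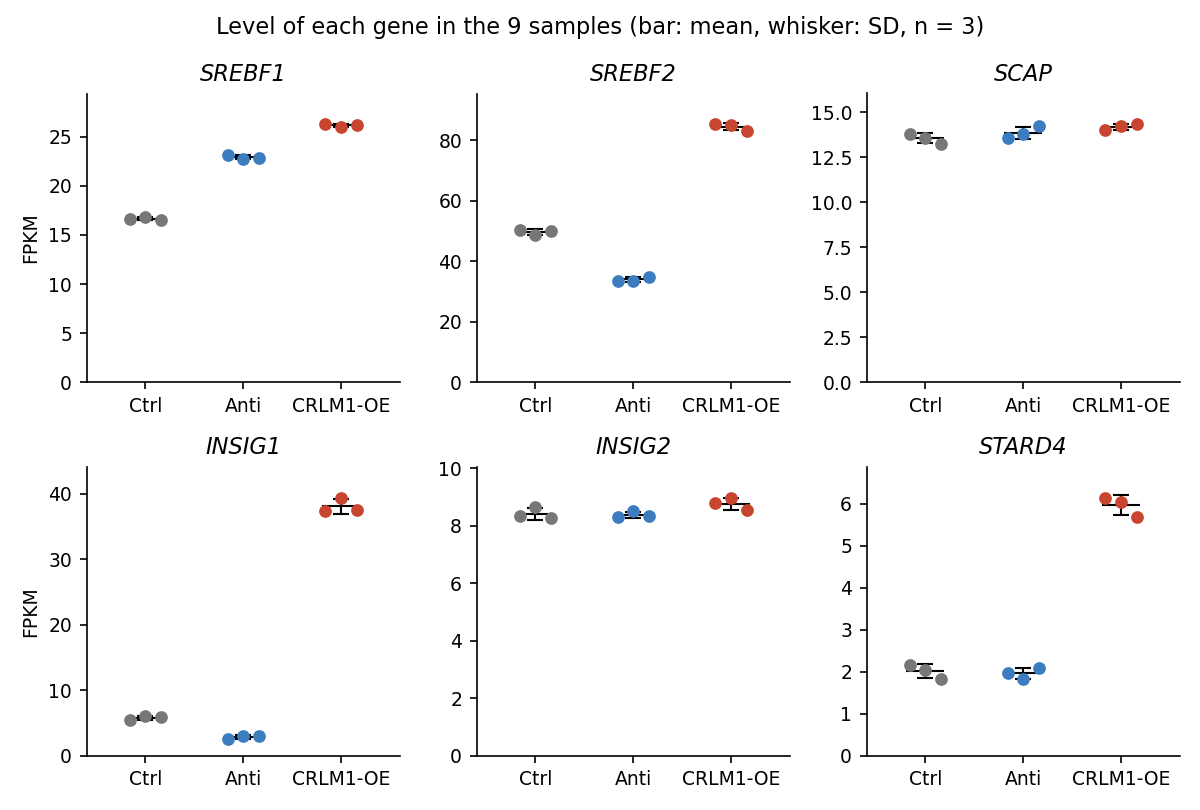
FPKM of the 6 genes (vertical axes, each from 0) in the 3 samples of Ctrl, Anti and CRLM1-OE, with the mean as a bar and the SD as whiskers. The CRLM1-OE points stand apart above both controls for INSIG1, STARD4, SREBF2 and SREBF1, while the points of SCAP and INSIG2 lie between 13.25 and 14.31 and between 8.27 and 8.97 FPKM.

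A gene was called where it changed 2-fold or more and had an adjusted p no larger than 0.05 in edgeR's quasi-likelihood test, the limits the study used. In CRLM1-OE against Ctrl, 2 of the 6 genes were called, INSIG1 and STARD4, both higher, beside 3.41% of the 29846 genes tested (2.50% higher). Over all genes 745 were higher and 273 lower, or 1101 and 187 with libraries scaled to total counts alone, where again 2 members were called. Against Anti, 3 of the 6 were called, INSIG1, STARD4 and SREBF2, all higher, beside 5.65% of 30183 genes (3.09% higher). Between the controls, 1 was called in Anti against Ctrl, INSIG1, which was lower, beside 1.06% of 29714 genes (0.380% lower). There 203 genes were higher and 113 lower, or 295 and 71 with total counts alone.

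By adjusted p without the fold limit, 4 of 6 passed in CRLM1-OE against Ctrl, all higher, beside 31.8% of all genes (15.0% higher). Against Anti 4 of 6 passed, all higher, beside 35.6% (17.1% higher). In Anti against Ctrl, SREBF1 passed as higher and INSIG1 and SREBF2 as lower, beside 23.7% (11.5% higher and 12.2% lower). In CPM, counts adjusted to library size, here with TMM factors, the samples of CRLM1-OE and Ctrl did not overlap for 5 of 6, 4 higher and INSIG2 lower, beside 37.5% of all genes (18.3% higher and 19.3% lower). CRLM1-OE and Anti did not overlap for 4 of 6, all higher, beside 41.0% (20.1% higher). Anti and Ctrl did not overlap for 4 of 6, with SREBF1 higher and INSIG1, INSIG2 and SREBF2 lower in Anti, beside 31.0% (16.9% higher and 14.0% lower). Both CRLM1-OE comparisons share the CRLM1-OE samples, and each control serves in 2 comparisons. Nothing about the members is read from these counts, since results of the comparisons were known when they were chosen.

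The choice of scaling matters for the genes that differed little. Over the 11716 genes whose mean count reached 100, the median log2 fold change in CRLM1-OE against Ctrl was -0.045 with TMM factors and 0.096 with total counts alone. The corresponding medians were -0.036 and 0.023 against Anti, and -0.007 and 0.098 in Anti against Ctrl. The FPKM of each sample are also scaled to its mapped fragments, so that small FPKM differences and TMM fold changes can differ in sign.

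SREBF2, the gene of the factor that mainly drives cholesterol genes, was the most abundant member in every group. Its level was 85.23, 85.11 and 83.16 FPKM in CRLM1-OE, 50.44, 48.68 and 49.83 in Ctrl, and 33.46, 33.54 and 34.94 in Anti. No sample of one group overlapped another, with CRLM1-OE highest and Anti lowest. The log2 fold change was 0.65 (SE 0.023) against Ctrl, a 1.57-fold difference, and 1.27 (SE 0.021) against Anti, a 2.41-fold difference. Among genes whose mean count reached 100, 646 of 11716 had a higher value against Ctrl and 101 of 11765 against Anti. Anti was below Ctrl by a log2 fold change of -0.64 (SE 0.024). There, 65 of the 11623 genes whose mean count reached 100 had a lower value.

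SREBF1, the gene of the factor that mainly drives fatty acid genes, followed another order. It had 26.26, 26.04 and 26.18 FPKM in CRLM1-OE, 16.62, 16.84 and 16.55 in Ctrl, and 23.16, 22.74 and 22.84 in Anti. Here Ctrl was the lowest group and Anti stood between, close to CRLM1-OE, again without overlap. The log2 fold change was 0.54 (SE 0.031) against Ctrl and 0.15 (SE 0.027) against Anti, and Anti was above Ctrl by 0.37 (SE 0.031). Among genes whose mean count reached 100, 970 of 11716 had a higher value against Ctrl and 3821 of 11765 against Anti. The replicates of SREBF1 lay close together, with an SD of 0.426% of the mean in CRLM1-OE and 0.957% in Anti. Each SD rests on 3 samples and was not compared with the noise of counting. Counts do not part the SREBP1a and SREBP1c forms, which start at different promoters.

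Within a sample, SREBF2 exceeded SREBF1 in FPKM 3.23 ± 0.0479 times in CRLM1-OE and 2.98 ± 0.0772 times in Ctrl, but only 1.48 ± 0.0431 times in Anti (SD, n = 3 each). The ranges of the 3 groups did not overlap, at 3.18 to 3.27, 2.89 to 3.03 and 1.44 to 1.53. CRLM1-OE and Ctrl were thus near each other in this ratio while differing in the level of both genes, and Anti stood apart.

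**Figure D2:**
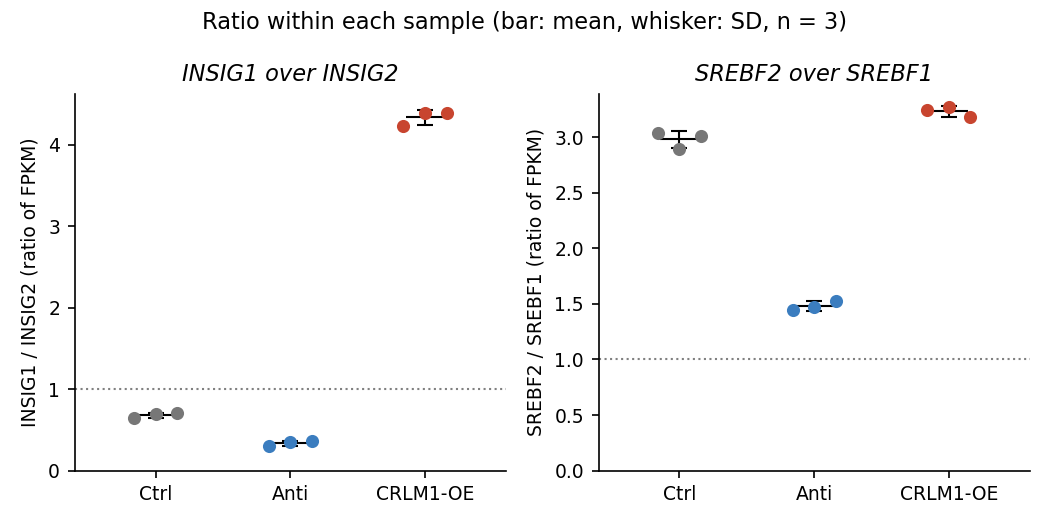
Ratio of FPKM within each sample for INSIG1 over INSIG2 (left) and SREBF2 over SREBF1 (right), with the mean as a bar, the SD as whiskers (n = 3) and a dotted line at 1. INSIG1 over INSIG2 lies above 1 in CRLM1-OE (4.24 to 4.39) and below it in Ctrl and Anti, and SREBF2 over SREBF1 is lowest in Anti (1.44 to 1.53).

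SCAP, the escort of both factors, barely differed between groups. It had 13.99, 14.21 and 14.31 FPKM in CRLM1-OE, 13.80, 13.55 and 13.25 in Ctrl, and 13.55, 13.77 and 14.21 in Anti. In FPKM the CRLM1-OE samples lay above the Ctrl samples by a narrow margin, whereas in TMM-scaled CPM all 3 groups overlapped. The log2 fold change of SCAP was -0.049 against Ctrl, with a 95% interval from -0.12 to 0.020, and -0.012 against Anti, from -0.078 to 0.054. With total counts alone it became 0.092 against Ctrl and 0.047 against Anti, that is, the sign turned.

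INSIG1, the retention gene that SREBPs themselves induce, had 37.27, 39.33 and 37.53 FPKM in CRLM1-OE, 5.39, 5.99 and 5.84 in Ctrl, and 2.53, 2.97 and 3.02 in Anti. Every CRLM1-OE sample was far above every control sample, and every Anti sample was below every Ctrl sample. For INSIG1 the log2 fold change was 2.62 (SE 0.039) against Ctrl and 3.70 (SE 0.043) against Anti. Of the genes whose mean count reached 100, 3 had a higher value against Ctrl and 1 against Anti, with CRLM1 itself among them in both. In Anti against Ctrl the value was -1.11 (SE 0.071), with 2 of 11623 genes lower. The call of INSIG1 in Anti against Ctrl rests on the 2-fold limit, since limma on log2(FPKM + 0.1) gave -0.99.

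INSIG2, which encodes the related retention protein, showed small and unsteady differences. Its levels were 8.80, 8.97 and 8.55 FPKM in CRLM1-OE, 8.34, 8.66 and 8.27 in Ctrl, and 8.31, 8.51 and 8.35 in Anti. In FPKM, CRLM1-OE overlapped Ctrl and lay just above Anti. In TMM-scaled CPM, CRLM1-OE (24.42 to 25.19) lay just below Ctrl (25.36 to 26.71) and overlapped Anti (24.22 to 24.98). The log2 fold change was -0.056 against Ctrl, with a 95% interval from -0.16 to 0.050, and 0.018 against Anti, from -0.086 to 0.12. With total counts alone the value against Ctrl became 0.086, so that its sign depends on the scaling.

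The pair of INSIG genes therefore changed places. INSIG2 was the more abundant of the pair per length in both controls, with an INSIG1 to INSIG2 ratio of 0.681 ± 0.0312 in Ctrl and 0.338 ± 0.0301 in Anti. In CRLM1-OE the ratio was 4.34 ± 0.0877 (SD, n = 3 each), and INSIG1 ranked second among the 6 genes, after SREBF2, whereas in both controls STARD4 alone was lower. Against SCAP, INSIG1 stood at 0.424 ± 0.0294 in Ctrl, 0.205 ± 0.0159 in Anti and 2.68 ± 0.0748 in CRLM1-OE. In each group, neighbours in the order of the 6 levels did not overlap between samples. Among the genes with at least 1 FPKM, 48.3% lay below INSIG1 in Ctrl, 26.5% in Anti and 88.3% in CRLM1-OE.

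STARD4, whose product moves cholesterol between membranes, was the least abundant member throughout. It had 6.14, 6.05 and 5.69 FPKM in CRLM1-OE, 2.17, 2.03 and 1.83 in Ctrl, and 1.96, 1.82 and 2.10 in Anti. CRLM1-OE was apart from both controls, and the controls overlapped each other. Log2 fold changes of STARD4 were 1.45 (SE 0.057) against Ctrl and 1.56 (SE 0.057) against Anti, or 2.73-fold and 2.95-fold. Anti against Ctrl gave -0.13 (SE 0.076), and the 95% interval reached from -0.28 to 0.014. A step between Anti and Ctrl, as INSIG1 and SREBF2 had, was not resolved for STARD4.

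**Figure D3:**
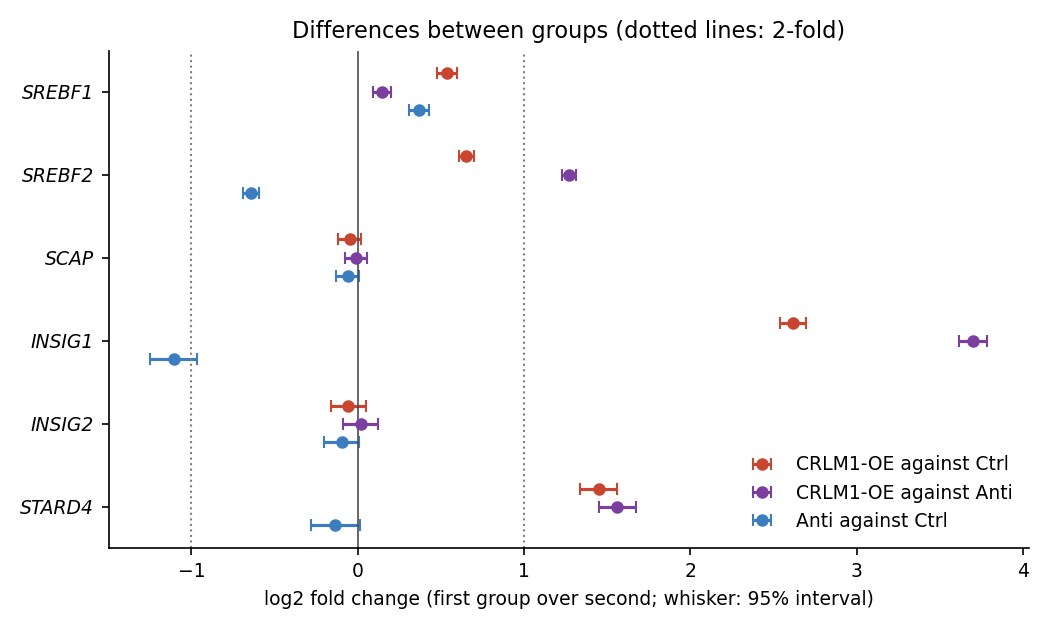
Log2 fold change of each gene (horizontal axis) in CRLM1-OE against Ctrl, CRLM1-OE against Anti and Anti against Ctrl, with whiskers for the 95% interval and dotted lines at a 2-fold difference. INSIG1 lies farthest from 0 in all 3 comparisons (2.62, 3.70 and -1.11), the whiskers of SCAP and INSIG2 against both controls cross 0, and SREBF1 alone lies above 0 in Anti against Ctrl, where with total counts alone SCAP (0.045) and INSIG2 (0.008) did so too.

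Across the 9 samples, the Pearson correlation of log2(CPM + 1) was 0.973 between INSIG1 and SREBF2, 0.968 between INSIG1 and STARD4 and 0.897 between SREBF2 and STARD4. SREBF1 had 0.659 with STARD4, 0.482 with INSIG1 and 0.273 with SREBF2. These values come from 3 groups of 3 samples in shared libraries, so they mainly describe the spacing of 3 group levels and carry no p-value. Among 11702 genes whose mean count reached 100, those most like INSIG1 included KRTAP2-3 (0.9983), a keratin-associated protein gene with near-identical copies, and MSMO1 (0.9974), which encodes a sterol demethylating oxidase. In all, 73 genes reached 0.99 with INSIG1. NR4A2 (0.9997), BAIAP2 (0.9991) and HN1 (0.9989) came closest to SREBF2, and OLFML2A (0.9971), C6orf62 (0.9964) and UNC45A (0.9963) to STARD4. For SREBF1 they were MUM1 (0.9968), MPRIP (0.9959) and PRRC2A (0.9947). INSIG2 and SCAP had weaker counterparts, with GUCD1 (0.9479), PIP4K2A (0.9478) and GS1-358P8.4 (0.9402) for INSIG2, and RPF2 (0.9515), FARP2 (0.9085) and PLS3 (0.8945) for SCAP.

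Other transcripts overlap some members. The counts on SREBF2-AS1, listed as RP5-821D11.7 and lying opposite to SREBF2 with 254 bp over its exons, were 134, 114 and 157 in CRLM1-OE, 82, 66 and 73 in Ctrl, and 59, 42 and 53 in Anti. They followed the order of SREBF2 at far lower numbers, against 7471 to 21907 counts for SREBF2. RAI1 overlaps the exons of SREBF1 by 120 bp on the other strand and had 4.97, 5.27 and 4.70 FPKM in CRLM1-OE, 3.37, 3.28 and 3.40 in Ctrl, and 4.82, 4.77 and 4.76 in Anti. Like SREBF1, RAI1 was lowest in Ctrl, but its CRLM1-OE and Anti samples overlapped. SREBF2-AS1 under this name and RAI1 were added after the values were seen. STARD4-AS1 had 1 to 5 counts per sample, against 400 to 1631 for STARD4. Whether strand was used in counting is not given in the sources used here, so that reads over such overlaps cannot be assigned to a strand.

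Introns of SREBF2 and SREBF1 host the genes of miR-33a and miR-33b, which are known to repress genes of sterol export and fatty acid breakdown. Their main arms are shown since both carry the same seed (bases 2 to 8, in capitals), as given by RefSeq (GRCh38.p14).

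hsa-miR-33a-5p, chr22:41900949-41900969, plus strand: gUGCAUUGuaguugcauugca

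hsa-miR-33b-5p, chr17:17813897-17813916, minus strand: gUGCAUUGcuguugcauugc

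Per the labels, the libraries were made from polyA RNA, and mature miRNAs were not measured. MIR33A had 1 count in 1 CRLM1-OE sample and 0 in the other 8 samples, and MIR33B had 1 count in 1 Ctrl sample and 0 elsewhere. A floor of 3 counts would equal 0.0674 to 0.0901 CPM by total counts, here without TMM factors, depending on the library. Neither hairpin reached this floor, while both host genes were far above.

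The genes lie on 6 chromosomes, so that none shares a neighbourhood with another. In GENCODE version 44 on GRCh38, INSIG1 spans chr7:155297776-155310235 (plus strand, 6 exons in its canonical transcript), INSIG2 chr2:118088452-118110997 (plus, 6 exons) and SCAP chr3:47413681-47477126 (minus, 23 exons). SREBF1 spans chr17:17810399-17837002 (minus, 19 exons), SREBF2 chr22:41833105-41907306 (plus, 19 exons) and STARD4 chr5:111496033-111512590 (minus, 6 exons).

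The steps between the factors and their targets were read from 5 lists of other genes, by the same test across all genes. Genes that rose or fell had an adjusted p no larger than 0.05, and a call also needs the 2-fold difference. The lists were chosen with earlier results of the same samples known, and FBXW7 and STARD5 were named for the size of their change. The p-values printed for genes of these lists are therefore a description and no independent evidence. Over all genes tested, 31.8% passed in CRLM1-OE against Ctrl (15.0% higher) and 35.6% against Anti (17.1% higher). In Anti against Ctrl 23.7% passed (11.5% higher and 12.2% lower). These shares include genes with as few as 1 count, so they are not matched to the counts of the lists. Of 15 genes of SREBP processing and of the COPII coat, 3 rose and 7 fell in CRLM1-OE against Ctrl, and none was called. The median log2 fold change was -0.037, beside 0.017 over all genes tested, and 0.10 with total counts alone, where 7 rose and 5 fell. Against Anti 4 rose and 5 fell, or 6 and 5 with total counts alone, and in Anti against Ctrl 4 rose and 7 fell, or 5 and 4. MBTPS1, the site-1 protease, had 26.55, 25.76 and 25.72 FPKM in Ctrl and 23.56, 24.74 and 22.77 in CRLM1-OE. Its log2 fold change was -0.25 (adjusted p = 2.7e-16, edgeR). MBTPS2, the site-2 protease, fell from 1.32 ± 0.101 to 1.03 ± 0.0808 FPKM, a log2 fold change of -0.47 (adjusted p = 6.8e-08, edgeR). With total counts alone these became -0.11 for MBTPS1 and -0.33 for MBTPS2, and both still passed. Relative to Anti, MBTPS1 had -0.43 and MBTPS2 -0.79, and in Anti against Ctrl both rose, by 0.16 and 0.30. The protease genes thus had the reverse order of INSIG1 over the 3 groups.

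Of 13 genes of INSIG and SREBP turnover, which hold the ER ubiquitin ligases and the F-box protein of SREBP breakdown, 5 rose and 4 fell against Ctrl, and none was called. This became 8 and 1 with total counts alone. Against Anti 5 rose and 6 fell, or 7 and 4 with total counts alone. In Anti itself against Ctrl, 6 rose and 3 fell, or 9 and 1, so the balance of this list differed between controls and scalings. FBXW7, the F-box protein that marks nuclear SREBPs for breakdown, had the largest value of the list against Ctrl, 0.80 (SE 0.071, adjusted p = 3.3e-28, edgeR), and rose from 1.43 ± 0.0473 to 2.71 ± 0.167 FPKM (SD, n = 3 each). FBXW7 also rose in Anti, to 1.92 ± 0.130 FPKM, with a log2 fold change of 0.33 against Ctrl (adjusted p = 0.00016, edgeR), and CRLM1-OE was above Anti by 0.45 (SE 0.066, adjusted p = 1.3e-10, edgeR). RNF139, an ER ligase known to bind INSIG1, had a log2 fold change of 0.063 against Ctrl, which did not pass the test. With total counts alone RNF139 had 0.20 and passed. RNF145, another gene of this list, was lower against Ctrl, at -0.29 (adjusted p = 1.7e-11, edgeR), and at -0.15 with total counts alone, where it still passed. Against Anti RNF145 had -0.37.

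Downstream, all 21 cholesterol synthesis enzymes passed the test as higher in CRLM1-OE against each control, and 7 were called against Ctrl and 9 against Anti. Scaled to total counts, 8 and 12 were called. Of the 21, 14 fell and 1 rose in Anti against Ctrl (median -0.24, beside 0.005 over all genes), or 10 and 1 with total counts alone. IDI1, which isomerizes the isoprene unit, had 22.8 ± 0.294 FPKM in CRLM1-OE cells, 6.44 ± 0.376 in Ctrl cells and 5.38 ± 0.321 in Anti (SD, n = 3 each). MSMO1 had 49.4 ± 1.19, 16.6 ± 0.479 and 12.7 ± 0.171, and FDFT1, which encodes squalene synthase, had 51.6 ± 0.667, 19.8 ± 0.535 and 15.2 ± 0.238 in the same order. The order of groups in these 3 enzymes was that of INSIG1 and SREBF2. HMGCS1, which makes HMG-CoA, had log2 fold changes of 1.57 against Ctrl and 1.73 against Anti, and ACAT2, which joins acetyl units, had 1.30 and 1.71. All 5 had smaller values than INSIG1 in both comparisons. These enzymes were known to be higher from earlier results of the same samples, so their direction is no independent evidence.

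Of 13 fatty acid synthesis genes, 7 rose and 2 fell against Ctrl with none called, and 9 rose and 4 fell against Anti with 2 called, LPIN1 and SCD. Scaled to total counts, 2 were called against Ctrl and 3 against Anti. SCD, the desaturase that makes oleate, had 173 ± 1.36 FPKM in CRLM1-OE cells, 82.3 ± 0.392 in Ctrl cells and 75.6 ± 0.879 in Anti (SD, n = 3 each). LPIN1, a phosphatidate phosphatase, had 3.39 ± 0.0751, 1.64 ± 0.0400 and 1.40 ± 0.115. Both were lowest in Anti, where SREBF1 was above Ctrl. Over the list, 1 gene rose and 6 fell in Anti against Ctrl, and with total counts alone 5 rose and 3 fell, so the balance of this list depends on the scaling.

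STARD4 was compared with 15 other genes of sterol transport and storage. Of these, 3 rose and 4 fell against Ctrl with none called, and 6 rose and 3 fell against Anti with 1 called. The called gene was STARD5, of the same subfamily of lipid transfer proteins as STARD4, with 0.763 ± 0.0473 FPKM in CRLM1-OE cells, 0.437 ± 0.0416 in Ctrl cells and 0.330 ± 0.0265 in Anti (SD, n = 3 each). STARD5 rose by a log2 fold change of 0.68 (adjusted p = 5.1e-06, edgeR) against Ctrl and 1.16 (adjusted p = 2.4e-14, edgeR) against Anti. With total counts alone, 6 rose and 2 fell against Ctrl. None rose and 7 fell in Anti against Ctrl, or 3 and 5 with total counts alone. The fold changes of this list had a median of 0.002 against Ctrl and 0.29 against Anti.

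**Figure D4:**
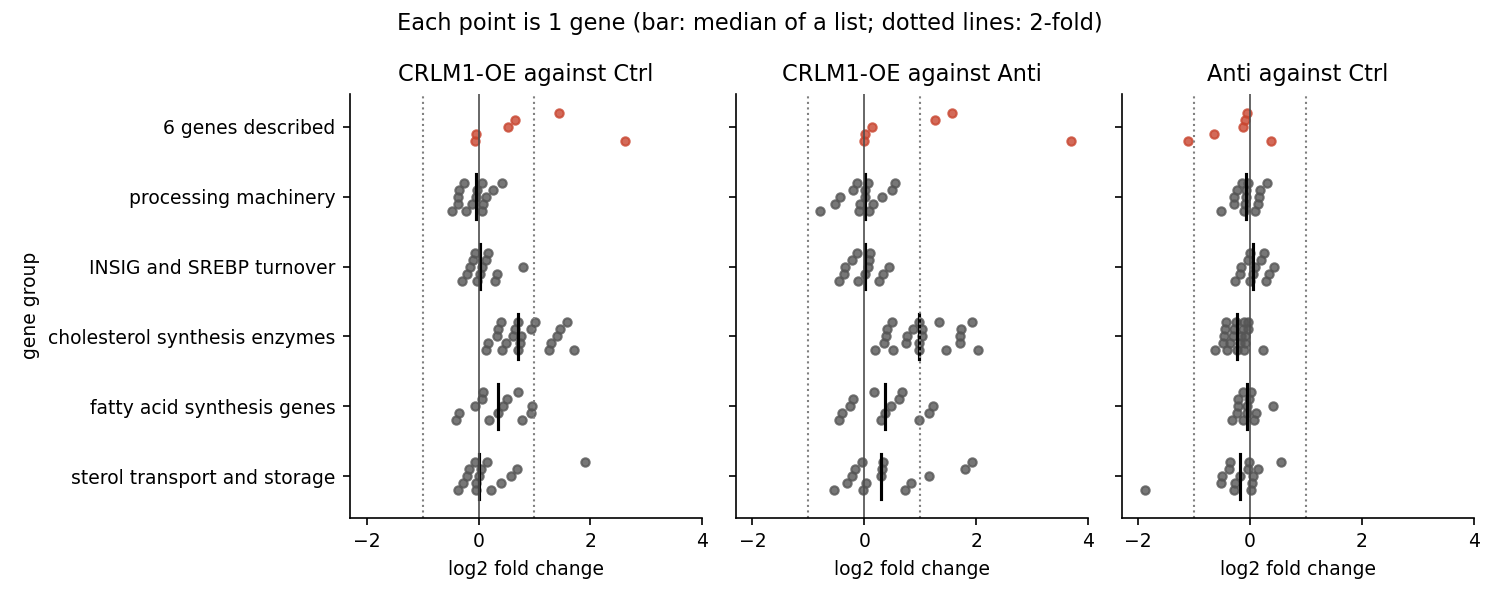
Log2 fold changes (horizontal axes) of the 6 genes described and of the genes of 5 lists, 1 point per gene, in each comparison, with the median of each list as a bar and dotted lines at a 2-fold difference. The cholesterol synthesis enzymes lie wholly to the right of 0 in both CRLM1-OE comparisons (medians 0.71 and 0.98), and mostly to the left in Anti against Ctrl, whereas the processing list has medians of -0.037, 0.010 and -0.072. Points beyond the 2-fold lines in the sterol transport row include STAR and STARD6, whose values did not pass the test.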

How the data were processed

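RNA-seq of HCT116 cells was analysed in 9 samples, grouped by their labels (CRLM1-OE, Ctrl and Anti, 3 each). Per the supplementary methods, reads were trimmed (FASTX-Toolkit), kept from 16 nt upward and mapped to GRCh38 by TopHat2 with up to 4 mismatches and the Gencode version 23 annotation. The deposited counts are of uniquely mapped reads. The authors also deposited FPKM values to 2 decimals. The tables hold 31558 and 31268 genes.

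Counts were compared with edgeR 4.0.16 (TMM factors, glmQLFit, glmQLFTest) in R 4.3.3 on the 6 samples of each comparison, over genes with at least 1 count, with Benjamini-Hochberg adjustment. The SE was the absolute log2 fold change over the square root of F. For 1 gene, an exact permutation test of 3 against 3 cannot go below 0.1. Alternatives were RLE factors, total counts, filterByExpr, DESeq2 1.42.0, limma 3.58.1 on FPKM, a fit of all 9 samples, a replicate block and leaving samples out. The fits were also run on simulated data, and the outcome is not reported here. Figures used matplotlib 3.10.9.

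The members and lists were chosen with earlier results of these data known. Named genes were the members, MBTPS1, MBTPS2, overlapping transcripts, up to 5 called genes of each list (the largest change where none was called) and the 3 genes most like each member. RNF139, RNF145, STAR and STARD6 were named after their values were seen. Some genes that the rule takes are not reported here.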

Additional observations from a re-analysis of the deposited data

How the results depend on the processing

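Over 16 alternatives, the members called stayed at 2 in CRLM1-OE against Ctrl and at 3 against Anti, except that an adjusted p alone gave 4 in each. In Anti against Ctrl the 1 call became 0 under limma on log2(FPKM + 0.1), with or without a mean FPKM of at least 1, and on log2(FPKM + 1), and 3 with an adjusted p alone. With each sample left out in turn the number of members called stayed at 2, 3 and 1. The log2 fold changes of INSIG1, STARD4, SREBF1 and SREBF2 kept their sign in every alternative and comparison. INSIG1 ranged from 2.54 to 2.76 against Ctrl, from 3.35 to 3.76 against Anti and from -1.15 to -0.81 in Anti against Ctrl. The signs of SCAP and INSIG2 turned in 4 of 15 alternatives each against Ctrl, in 5 and 0 against Anti, and in 4 and 1 in Anti against Ctrl.

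Over all genes, 1018, 1705 and 316 were called in CRLM1-OE against Ctrl, CRLM1-OE against Anti and Anti against Ctrl. An adjusted p alone gave 9478, 10751 and 7041. Limma gave 634, 1030 and 116 with a pseudocount of 0.1, 98, 226 and 4 with a pseudocount of 1, and 270, 515 and 16 with a mean FPKM of at least 1. In Anti against Ctrl, filterByExpr gave 185 and DESeq2 118. Samples left out in turn gave 922 to 978, 1557 to 1641 and 248 to 300. These 3 limma fits start from the FPKM values, which cover fewer genes than the counts. They add a pseudocount, which lowers the fold change of genes with low values, and 1 of them leaves out genes with a lower mean FPKM. The part of each in the number of calls was not tested.

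With the replicate number as a block, 865, 1488 and 213 genes were called, and the members called were 2, 3 and 1 as without it. Deviations from the group means correlated between -0.0333 and 0.0783 for same-numbered samples and between -0.0457 and 0.0751 for others, and 4 of the 9 samples correlated best with their own number, so the numbers were not taken as pairs. The block moved no list's number of called genes. At these depths every member had at least 355 counts per sample, whereas the hosted miRNA genes could not be measured.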
